A study of Mus musculus with 6 samples.

Results

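Expression of 10 endothelial genes (Pecam1, Esam, Emcn, Cdh5, Cldn5, Kdr, Flt1, Tie1, Tek and Eng) was examined in mandibular-derived and femur-derived monocytes. They were chosen by name, with earlier results of these data known, as genes that endothelial cells, the lining of blood vessels, use to hold together and to receive growth signals. All 10 were found among the 57010 genes of the count table, and 8 passed the filter on low counts. Emcn and Cldn5 did not. Bulk RNA was sequenced in 6 libraries from bone marrow of C57BL/6 mice (C57BL/6J in the study's methods) that were 1 year old, 3 libraries from the femur (S13, S15 and S18) and 3 from the mandible (S16, S19 and S23). In both groups monocytes, the precursors of osteoclasts, had been taken from flushed marrow with a magnetic isolation kit that binds unwanted cells and lets the rest flow through, so cells that the antibodies miss stay in the preparation. No treatment or genetic change was named in the labels. The study used male and female mice, but the labels do not give the sex, animal or batch of a library, so p-values measure only the spread between these libraries. The comparison asks how far transcripts of vessel genes differ between the marrow monocytes of the 2 skeletal sites.

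Endothelial cells are joined by the adhesion proteins encoded by Cdh5 (VE-cadherin), Cldn5 (claudin-5), Esam and Pecam1 (CD31), and Emcn encodes a surface sialomucin of veins and sinusoids. Vascular endothelial growth factor acts through the receptors encoded by Kdr (VEGFR2), the main signaling receptor, and Flt1 (VEGFR1), which also serves as a decoy. Tek (TIE2) is the receptor of the angiopoietins, Tie1 is its partner, and Eng (endoglin) is a coreceptor for BMP9 and TGF-beta. In bone marrow these genes mark the sinusoids and arterioles, but several are not limited to vessels. Pecam1 and Eng are also made by monocytes and other blood cells, Flt1 by monocytes and macrophages, Esam by megakaryocytes, platelets and hematopoietic stem cells, and Tek and Tie1 by stem cells.

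Many endothelial promoters carry the core motif GGAA, which ETS-family factors such as FLI1 bind. The 250 bases before the transcription start are shown for Flt1 and Eng, which were among the more abundant of the 10 genes in these libraries, and for Cldn5, which was almost without counts. Matches to GGAA on either strand are in capitals (TTCC on the strand shown), and no match overlaps another. The sequences are from RefSeq on GRCm38.p6, whose promoter table held 7 of the 10 genes, and they run 5′ to 3′ on the strand of the gene. They lie at chr5:147726012-147726261 on the minus strand for Flt1, at chr2:32646345-32646594 on the plus strand for Eng, and at chr16:18776597-18776846 on the plus strand for Cldn5.
Flt1: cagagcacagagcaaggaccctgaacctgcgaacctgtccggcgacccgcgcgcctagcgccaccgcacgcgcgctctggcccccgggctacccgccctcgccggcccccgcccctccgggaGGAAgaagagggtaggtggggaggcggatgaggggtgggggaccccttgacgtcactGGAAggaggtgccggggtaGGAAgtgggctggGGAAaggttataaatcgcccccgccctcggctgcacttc
Eng: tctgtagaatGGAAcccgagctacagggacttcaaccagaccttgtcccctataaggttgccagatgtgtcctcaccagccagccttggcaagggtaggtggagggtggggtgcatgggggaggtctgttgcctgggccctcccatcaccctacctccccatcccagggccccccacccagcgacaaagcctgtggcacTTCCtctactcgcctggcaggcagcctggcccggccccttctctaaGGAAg
Cldn5: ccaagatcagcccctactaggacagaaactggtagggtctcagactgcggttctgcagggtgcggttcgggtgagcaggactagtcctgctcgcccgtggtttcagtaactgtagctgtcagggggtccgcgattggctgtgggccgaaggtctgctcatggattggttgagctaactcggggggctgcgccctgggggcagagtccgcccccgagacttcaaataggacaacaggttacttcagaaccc
Flt1 had 4 matches, Eng 3 and Cldn5 0. Of the genes not shown, Tie1 had 7, Kdr 4, Tek 2, and Emcn, too low to be tested, also 4. The 3 genes shown therefore do not stand for a relation between matches and level. Among 32851 promoter windows of the same length in that table, 93.4% held at least 1 match and the median was 3, so Eng was at the median of all genes. A match is a string of letters and not a measured binding site.

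The libraries held 15718782 to 25371474 counts on genes, and levels are given as counts per 1000000 (CPM) after scaling by TMM (trimmed mean of M values). Where a gene had no count, its level could still be as high as that of 3 counts, 0.133 to 0.172 CPM by library, a limit for counting error only. To see whether monocyte transcripts were present, 12 genes that define monocytes were read. All 12 were tested, 0 were called, and their summed level was 8074 to 14880 CPM in the femur libraries and 6912 to 12320 CPM in the mandible libraries. The sum leans on 1 gene, Lyz2 (lysozyme), at 5242 CPM per kilobase of gene model where the median of the 12 was 51.0. These genes do not show how pure the libraries were. Neutrophil markers summed to 3893 to 33110 CPM in the femur libraries and 4066 to 10470 CPM in the mandible libraries. Xist, which is transcribed from the inactive X chromosome of female cells, reached 1441 CPM in S23, a mandible library, whereas no other library exceeded 0.553 CPM. Libraries with and without Xist were thus not balanced between the sites, and a part of sex in the differences was not tested. Changes below are log2 fold changes of the mandible over the femur from edgeR's quasi-likelihood test, with a Benjamini-Hochberg adjusted p over 18114 tested genes, and a gene was called at an adjusted p under 0.05 and a change of at least 2-fold.

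Of the 8 endothelial genes tested, only Esam differed between the skeletal sites by this test. It was 59.5-fold higher in femur-derived monocytes, at 9.25 ± 0.773 CPM (SD, n = 3) against 0.146 ± 0.128 CPM in mandibular-derived monocytes. Pecam1, Cdh5, Kdr, Flt1, Tek, Tie1 and Eng were tested and did not pass, with 3 estimates above 0 and 4 below. In all, 1 of the 8 tested genes was called, where 5.18% of all tested genes were, 1 was lower in the mandible, against 1.3% of all, and 0 were higher, against 3.88%. The median log2 fold change of the 8 was -0.19 (0.20 without S13), beside -0.04 over all tested genes. The libraries of the groups did not overlap for 1 of the 8, Esam, which for all tested genes held in 24.2%.

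**Figure D1:**
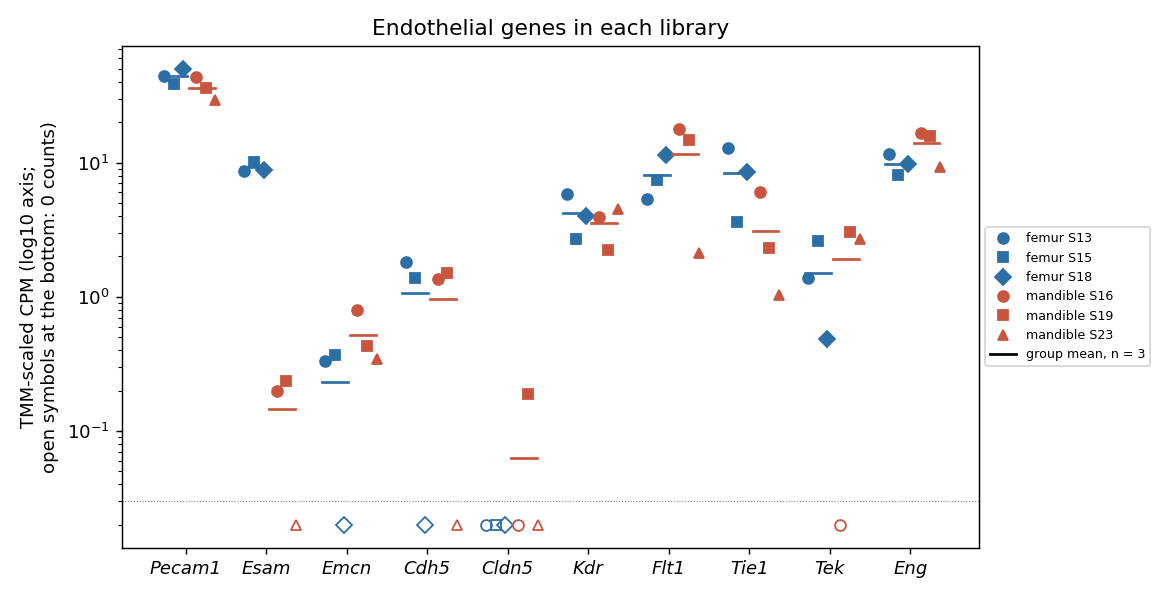
TMM-scaled CPM (log10 axis) of each of the 10 endothelial genes in each library, with femur libraries in blue, mandible libraries in red, group means of 3 libraries as lines and open symbols for 0 counts. The 3 femur values of Esam, 8.73 to 10.1 CPM, stand apart from the mandible values of at most 0.237 CPM, while the groups overlap for the other 9 genes.

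Among the adhesion genes, Esam (ENSMUSG00000001946, chr9:37528078-37538319, plus strand, GRCm38), which encodes an immunoglobulin-like protein of endothelial and platelet junctions, had 158, 220 and 201 counts in femur libraries S13, S15 and S18. It had 4, 5 and 0 counts in mandible libraries S16, S19 and S23. Every femur library was above every mandible library, and the 3 femur values were close to each other. The log2 fold change was -5.90 (SE 0.971, 95% interval -8.03 to -3.76), with an adjusted p of 0.0046. An exact permutation test (two-sided, 3 libraries a group) gave p = 0.1, the lowest value this design can reach. Because the mandible libraries held so few counts, the size of the fold is known less well than its direction. The estimate without S23 was -5.42 (adjusted p = 0.004), and the call was kept in 13 of 14 alternatives, with limma-voom as the exception (adjusted p = 0.055).

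Pecam1 (ENSMUSG00000020717, chr11:106654217-106750628, minus strand), a homophilic adhesion receptor of endothelium, platelets and leukocytes, was at 44.3, 38.3 and 50.1 CPM in S13, S15 and S18 and at 43.5, 36.2 and 29.2 CPM in S16, S19 and S23. It was highest in a femur library and lowest in a mandible library, but the groups overlapped. The log2 fold change was -0.29 (SE 0.27, 95% interval -0.88 to 0.31; adjusted p = 0.71 in edgeR), so that a 2-fold change in either direction lay outside the interval. Among the 8 tested genes its standard error was the smallest.

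Cdh5 (ENSMUSG00000031871, chr8:104101625-104144511, plus strand), whose protein is the cadherin of endothelial adherens junctions, was low in both groups. It had 33, 30 and 0 counts in femur libraries S13, S15 and S18, and 27, 32 and 0 counts in mandible libraries S16, S19 and S23. The zeros in S18 and S23 allow up to 0.133 and 0.172 CPM, whereas the other 4 libraries were at 1.35 to 1.82 CPM. The spread was thus between libraries of 1 group and not between sites. The biological coefficient of variation was 1.49, where the median over all tested genes was 0.456, and the 95% interval of the log2 fold change ran from -4.27 to 3.96 (estimate -0.15, adjusted p = 0.98 in edgeR).

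Emcn and Cldn5 were too low to be tested. Emcn (ENSMUSG00000054690, chr3:137341067-137432185, plus strand) had 6, 8 and 0 counts in S13, S15 and S18 and 16, 9 and 6 in S16, S19 and S23, or at most 0.801 CPM. Cldn5 (ENSMUSG00000041378, chr16:18776847-18778262, plus strand), the principal tight junction claudin of endothelium, had 4 counts in S19 and 0 in the other 5 libraries. For Emcn the groups overlapped, and for Cldn5 only the S19 value exceeded the 3 counts that a 0 allows. Fitted without the filter, their adjusted p in edgeR was 0.85 and 0.5.

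The receptors of vascular endothelial growth factor did not differ by the test. Kdr (ENSMUSG00000062960, chr5:75932827-75978458, minus strand) was at 5.86, 2.72 and 3.98 CPM in femur libraries S13, S15 and S18 and at 3.95, 2.23 and 4.52 CPM in mandible libraries S16, S19 and S23. The values of the groups were interleaved, and the log2 fold change was -0.23 (SE 0.7, 95% interval -1.77 to 1.31; adjusted p = 0.94 in edgeR). Flt1 (ENSMUSG00000029648, chr5:147561604-147726011, minus strand) was at 5.36, 7.37 and 11.4 CPM in S13, S15 and S18 and at 17.8, 14.9 and 2.12 CPM in S16, S19 and S23. Thus 2 mandible libraries were above every femur library and the third, S23, was below all of them. The log2 fold change of Flt1 was 0.53 (SE 0.67, 95% interval -0.95 to 2.0; adjusted p = 0.81 in edgeR). Without S23 it was 0.97, with an adjusted p of 0.38, and with the trend on gene length removed it was -0.13.

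The TIE receptors were low and variable. Tie1 (ENSMUSG00000033191, chr4:118471191-118490061, minus strand) was at 12.9, 3.64 and 8.53 CPM in S13, S15 and S18 and at 6.01, 2.33 and 1.03 CPM in S16, S19 and S23. The means were 8.36 ± 4.65 CPM (SD, n = 3) for femur and 3.12 ± 2.58 CPM for mandible libraries, but femur library S15 was below mandible library S16. The log2 fold change of Tie1 was -1.42 (SE 0.757, 95% interval -3.08 to 0.24), the furthest from 0 after Esam, and did not pass (adjusted p = 0.41 in edgeR). It was -0.96 without S13 and -2.31 without S16. Tek (ENSMUSG00000006386, chr4:94739289-94874976, plus strand) had 25, 57 and 11 counts in S13, S15 and S18 and 0, 64 and 47 counts in S16, S19 and S23. The 0 was in a mandible library and the second lowest count in a femur library, so that no order of the sites could be read. The log2 fold change of Tek was 0.35 (SE 1.49, adjusted p = 0.96 in edgeR), with a 95% interval from -2.93 to 3.62.

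Eng (ENSMUSG00000026814, chr2:32646595-32682669, plus strand) was at 11.6, 8.06 and 9.72 CPM in S13, S15 and S18 and at 16.8, 15.9 and 9.32 CPM in S16, S19 and S23. As for Flt1, S16 and S19 were above all femur libraries, while S23 lay inside the femur range. The log2 fold change was 0.51 (SE 0.41, 95% interval -0.39 to 1.42; adjusted p = 0.64 in edgeR), and 0.68 without S23. Exons of Eng overlap exons of Fpgs, a folate enzyme gene on the other strand, and whether counting used the strand is not given in the sources used here. Fpgs ranged from 4.82 to 9.63 CPM in femur libraries and from 5.13 to 8.01 CPM in mandible libraries, so reads of the shared stretch may belong to either gene.

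**Figure D2:**
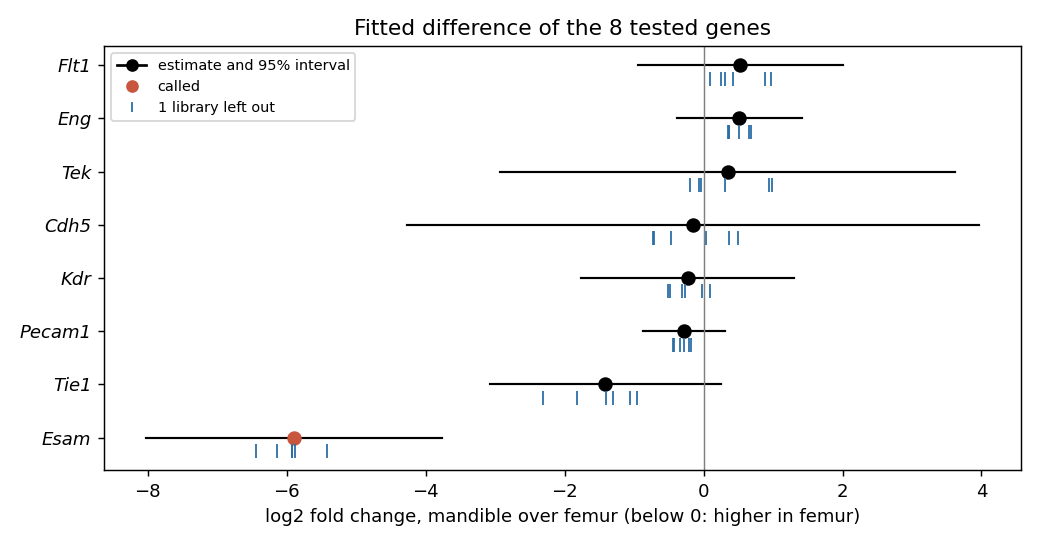
Log2 fold change of the mandible over the femur for the 8 tested endothelial genes, with approximate 95% intervals derived from edgeR's test as bars and the estimates with 1 library left out as ticks. The interval of Esam, from -8.03 to -3.76, lies wholly below 0, and the intervals of the other 7 genes cross 0.

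Set against each other per kilobase of gene model, the 10 genes formed an order in which only the first step held in every library. Pecam1 had a mean level of 6.47 CPM per kilobase over the 6 libraries and was above Eng, at 2.94, in 6 of 6 libraries without overlap of their ranges. The place of Esam depended on the site: it was second in the femur, at 3.23 CPM per kilobase with Eng at 2.42, and last but 1 in the mandible, at 0.0509, below Emcn at 0.0968. The other receptors followed in the femur as Tie1 (1.70), Flt1 (0.596), Kdr (0.463) and Tek (0.318), and in the mandible as Flt1 (0.859), Tie1 (0.635), Tek (0.405) and Kdr (0.395). Cdh5 was at 0.254 in the femur and 0.228 in the mandible, and Emcn and Cldn5 were at most 0.0968 CPM per kilobase in either group. Ranked by the mean over the 6 libraries, each gene after Pecam1 overlapped the next in range, so that their order was not resolved by the spread between libraries. The 12 monocyte-defining genes had levels from 7.24 CPM per kilobase to 5242 (Lyz2, lysozyme), with a median of 51.0, and the mean of Pecam1 was thus below the least abundant of them.

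The summed level of the 10 genes was 92.3, 74.6 and 93.1 CPM in S13, S15 and S18 and 90.4, 76.9 and 49.2 CPM in S16, S19 and S23. Only S23 fell outside the range of the femur libraries. Pecam1 supplied 48.0 to 53.8% of the counts in femur libraries and 47.1 to 59.3% in mandible libraries. Esam supplied 9.46, 13.6 and 9.54% in the femur libraries S13, S15 and S18, and 0.221, 0.309 and 0% in S16, S19 and S23. The share of Eng was 10.4 to 12.6% in femur libraries and 18.6 to 20.6% in mandible libraries, without overlap, although shares of 1 total are not independent and a lower Esam count raises the others. In bulk RNA, fewer cells of a type and less RNA per cell cannot be told apart.

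**Figure D3:**
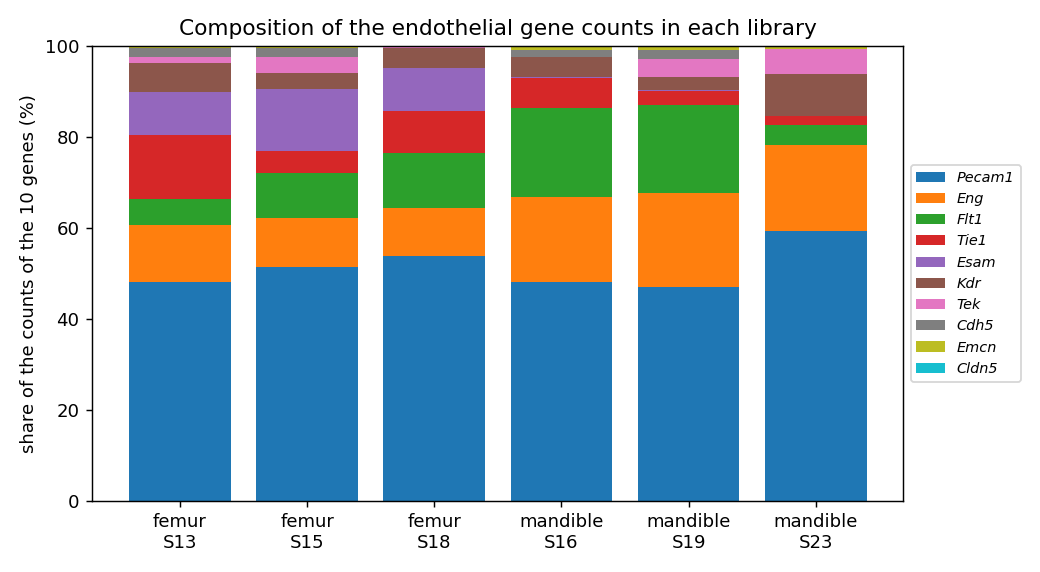
Share (%) of each gene in the counts of the 10 endothelial genes, per library. Pecam1 is the largest part of each bar, 47.1 to 59.3%, and the Esam part, 9.46 to 13.6% in the femur, is at most 0.309% in the mandible.

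Most genes of megakaryocytes and platelets, the blood cells that start clotting, were lower in the mandible, as Esam was. Of 14 such markers 13 were tested, and 11 were called lower in the mandible and 0 higher, with a median log2 fold change of -2.72. Over all tested genes 1.3% were called lower. The summed level of the list was 1110 to 1589 CPM in the femur libraries and 184 to 290 CPM in the mandible libraries. Within the groups, 3 libraries are too few to relate Esam to this sum, and the mandible libraries held only 4, 5 and 0 counts of Esam. Femur library S15 had the lowest femur sum (1110 CPM) and the highest Esam level (10.1 CPM). Mandible library S23 had the highest mandible sum (290 CPM) and no count of Esam. The count of 11 ranged from 8 (without S19) to 11 with 1 library left out. The most abundant were Itgb3 (integrin beta-3, 291 ± 57.0 against 91.3 ± 17.4 CPM, n = 3 each), Itga2b (platelet integrin alpha-IIb) and Pf4 (platelet factor 4). The largest falls were in Gp1ba, a subunit of the receptor for von Willebrand factor, at -4.14 (SE 0.552, adjusted p = 0.0012 in edgeR), in Pf4 at -3.91, in Gp6, the platelet collagen receptor, at -3.82, and in Treml1 at -3.18. The markers remained measurable in the mandible: Itga2b was at 239, 189 and 254 CPM in S13, S15 and S18 and at 49.9, 32.9 and 28.8 CPM in S16, S19 and S23.

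For each 100 counts of Itga2b there were 3.65, 5.38 and 3.5 counts of Esam in S13, S15 and S18, and 0.401, 0.722 and 0 in S16, S19 and S23. Relative to Itga2b, Esam was lower in every mandible library than in every femur library. Itga2b fell by less (log2 fold change -2.61) than Gp1ba, Gp6 or Pf4, and Esam was not set against Gp1ba or Gp6. Relative to 100 counts of Pf4 the same order held, at 3.02, 11 and 3.68 against 1.34, 2.54 and 0. The mandible ratios rest on only 4, 5 and 0 counts of Esam. For Pf4, where S19 (2.54) was close to S13 (3.02), the order is thus not resolved beyond counting error. Of 13 markers of hematopoietic stem and progenitor cells, the other blood cells that carry Esam, 12 were tested and 1 was called lower in the mandible, Slamf1, a receptor of stem cells and lymphocytes, with a log2 fold change of -3.40 (SE 0.525, adjusted p = 0.0032 in edgeR). The summed level of the stem cell list overlapped between the sites, with 126 to 189 CPM for the femur against 141 to 160.1 CPM for the mandible. Of other blood cells, 4 of 10 tested erythroid markers and 1 of 11 neutrophil markers were called lower in the mandible (0 to 7 and 0 to 5 with 1 library left out), with summed levels of 301 to 1878 against 163 to 253 CPM and of 3893 to 33110 against 4066 to 10470 CPM. Beside these counts, 1.3% of all tested genes were called lower. The part of these cells in the Esam result was not tested.

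**Figure D4:**
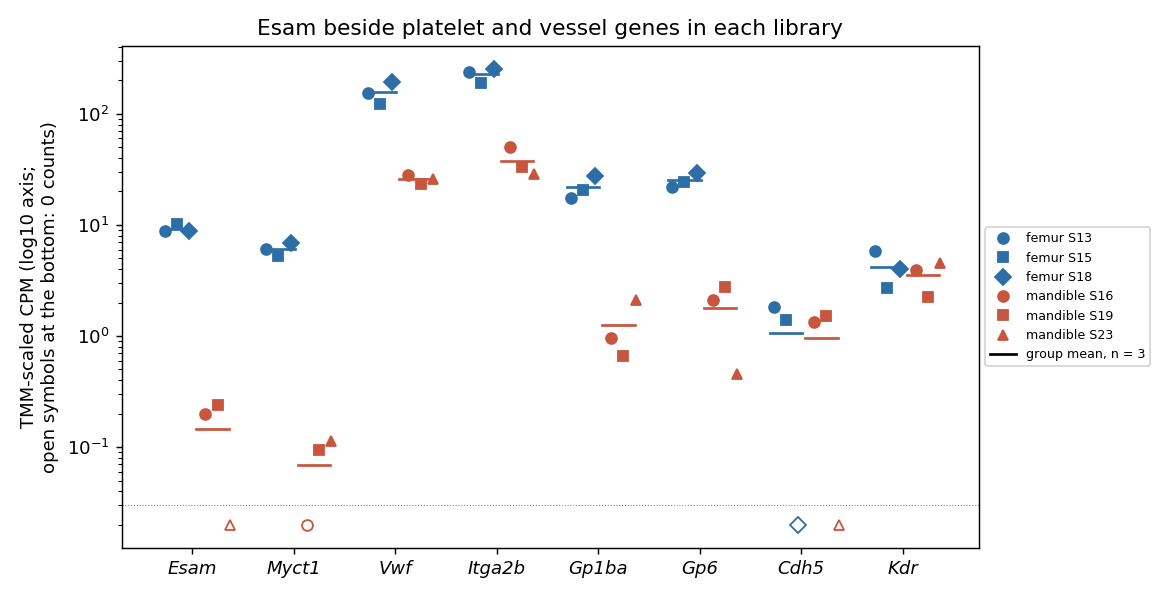
TMM-scaled CPM (log10 axis) of Esam, of Myct1 and Vwf, which are endothelial and blood cell genes, of the platelet and megakaryocyte genes Itga2b, Gp1ba and Gp6, and of the vessel genes Cdh5 and Kdr in each library, with group means of 3 libraries as lines and open symbols for 0 counts. The femur libraries are above the mandible libraries for the first 6 genes and overlap them for Cdh5 and Kdr.

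Among 36 other endothelial genes, 29 were tested, 2 were called lower in the mandible and 0 higher, and the median log2 fold change was 0.10. Of all tested genes, 1.3% were called lower and 3.88% higher. Vwf, which encodes von Willebrand factor and is also on the platelet list, was at 152, 122 and 192 CPM in S13, S15 and S18 and at 28.4, 23.3 and 25.9 CPM in S16, S19 and S23 (log2 fold change -2.59, adjusted p = 0.00032). Myct1, a small membrane protein gene of endothelium and blood stem cells, averaged 6.04 ± 0.843 CPM in femur libraries against 0.0698 ± 0.0612 CPM in mandible libraries (SD, n = 3 each), and its log2 fold change was -6.33 (adjusted p = 0.0077 in edgeR). These 2 genes, like Esam, were lower in every mandible library. So were other genes of the list that were not called, and some were higher in every mandible library. Groups without overlap were found for 24.2% of all tested genes. The call of Myct1 was lost with limma-voom and without S18, at an adjusted p of up to 0.058, and the count of 2 ranged from 1 (without S18) to 3 (without S15), with 1 gene called higher without S16. The other abundant genes of the list, Cd93 (123 ± 30.7 against 132 ± 43.9 CPM) and Thbd (thrombomodulin, 46.2 ± 20.3 against 71.4 ± 15.7 CPM), are expressed by monocytes as well and overlapped between the groups.

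Some markers of vessel subtypes were higher in the mandible, while the most abundant, Bmx (21.6 to 30.2 CPM over all libraries) and Mrc1 (8.02 to 24.9 CPM), kinase and mannose receptor genes that myeloid cells also use, were not called. Of 12 sinusoidal, venous and lymphatic genes 11 were tested and 1 was called higher, Ephb4, the venous ephrin receptor, at 2.23 ± 0.451 CPM against 18.3 ± 9.54 CPM (femur, then mandible, n = 3 each; log2 fold change 3.03, adjusted p = 0.0058 in edgeR). Of 12 arterial genes 8 were tested and 2 were called higher, Unc5b (netrin receptor, 3.96) and Efnb2 (ephrin-B2, 3.17), calls that were lost in 2 and 4 of the 6 fits with 1 library left out. Flt4, the receptor of lymphatic vessels, was at 3.2, 2.3 and 0 CPM in S13, S15 and S18 and at 9.86, 10.2 and 23.6 CPM in S16, S19 and S23, without overlap, but its log2 fold change of 2.99 (SE 1.06) did not pass (adjusted p = 0.16 in edgeR). In the first list 8 estimates were above 0 and 3 below, namely Stab2 (-0.30), Plvap (-0.42) and Dnase1l3 (-1.1). In the arterial list 6 were above 0 and 2 below, Notch4 (-1.03) and Mgp (-0.16). No gene below 0 was called in either list, and the remaining genes were too low to be tested. Over all tested genes 3.88% were called higher and 1.3% lower, and lists this short give no firm share. The medians of the 2 lists, 1.66 and 1.42, were 0.06 and 0.17 without S23. That fit tested 12 and 9 genes where the main fit tested 11 and 8, so the medians are not over the same genes. With 1 library left out, 1 to 3 genes of the first list were called (2 without S13, 3 without S15) and 0 to 3 of the arterial list (0 without S19 or S13, 1 without S23 or S18). Ephb4, Unc5b and Efnb2 are not limited to vessels, and markers of other cells rose beside them: 11 of 13 mesenchymal and osteoblast markers were called higher, with summed levels of 358 to 457 CPM (femur) and 8873 to 15290 CPM (mandible), and 6 of 12 mural and smooth muscle markers (3 without S19), with 21.4 to 43.4 against 326 to 694 CPM. All 7 skeletal muscle markers and 5 of 9 epithelial and ameloblast markers were also called higher. The part of these cells in the higher genes was not tested.

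The partners of the 10 genes were read from lists of their pathways, and the genes called there were all higher in the mandible, beside the same mesenchymal, mural, muscle and epithelial markers. In these lists of 5 to 17 tested genes, 1 or 2 calls each stood beside 3.88% of all tested genes called higher. Of 8 ligands and coreceptors of the VEGF pathway, 8 were tested and 1 was called, Nrp2, a coreceptor, at 20.3, 30.4 and 20.4 CPM in S13, S15 and S18 and 56.9, 97.9 and 176 CPM in S16, S19 and S23 (log2 fold change 2.22, adjusted p = 0.0072 in edgeR). Nrp1, the coreceptor of Kdr, was at 84.2 ± 21.3 and 123 ± 44.4 CPM, and the ligand Vegfa at 23.3 ± 10.2 and 29.6 ± 9.95 CPM, and neither was called. All 8 estimates were above 0 with a median of 1.49, which was 0.55 without S23. The receptors Kdr and Flt1 themselves had estimates on either side of 0.

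Of 5 angiopoietins and TIE regulators, 5 were tested and 2 were called higher, while the receptors Tie1 and Tek were not. Svep1, a matrix protein that binds TIE1, was at 9.0, 12.4 and 4.15 CPM in S13, S15 and S18 and at 55.9, 97.3 and 115 CPM in S16, S19 and S23 (log2 fold change 3.39, adjusted p = 0.00093 in edgeR). Angpt4, a ligand of TIE2, rose by 4.08 on the log2 scale, and by 3.31 without S23. Angpt1, the activating ligand of TIE2, averaged 22.6 ± 5.49 CPM (femur) and 24.6 ± 18.8 CPM (mandible) and was not called. The receptor Tek averaged 1.5 ± 1.08 CPM (femur) and 1.91 ± 1.66 CPM (mandible). The higher ligand transcripts in the mandible thus stood beside TIE receptor transcripts that did not pass the test.

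In the BMP9 and TGF-beta receptor pathways of endoglin, 13 of 15 genes were tested and 2 were called higher in the mandible. These were the type II receptors Tgfbr2, of TGF-beta (35.8 ± 10.8 against 102 ± 9.92 CPM, log2 fold change 1.51), and Bmpr2, of BMPs (47.8 ± 11.7 against 101 ± 15.3 CPM, 1.08). The call of Tgfbr2 was lost without S19 and with the trend on gene length removed (0.92), and that of Bmpr2 in 8 of 14 alternatives. The count of 2 was 0 without S19, 1 without S23, S13 or S18, and 4 without S15. Of 18 junction partners 17 were tested and 2 were called higher, Tjp1 (ZO-1), at 3.64 ± 1.51 against 52.4 ± 25.3 CPM (log2 fold change 3.85), and Cdh2 (N-cadherin), at 4.61 ± 1.05 against 26.2 ± 1.75 CPM (2.50), and the count of 2 rose to 4 without S15. The catenin genes Ctnnb1 (157 ± 23.8 against 193 ± 16.7 CPM) and Ctnna1 (95.9 ± 12.9 against 168 ± 16 CPM), which serve classical cadherins, were not called.

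Of 21 endothelial transcription factors 16 were tested, 1 was called higher and 1 lower, where 3.88% and 1.3% of all tested genes were. Foxf1 had at most 0.0922 CPM in a femur library and 3.05, 7.17 and 11.9 CPM in S16, S19 and S23 (adjusted p = 0.005 in edgeR, 0.054 in limma-voom, where the call was lost). Tal1, a factor of blood and endothelial progenitors, was at 62.8, 21.8 and 29.0 CPM in S13, S15 and S18 and at 10.1, 7.98 and 5.49 CPM in S16, S19 and S23 (log2 fold change -2.27, adjusted p = 0.013 in edgeR), a call that was lost without S19, S23 or S13. The most abundant, Klf2 (279 ± 59.8 against 270 ± 114 CPM), Klf4 (240 ± 100 against 297 ± 13.9 CPM) and the ETS factor Fli1 (156 ± 42.9 against 128 ± 39.5 CPM), are also made by monocytes and were not called. Fli1 was measured in all libraries, beside the GGAA matches shown above for Flt1 and Eng, and no binding was measured. Over all 60 endothelial genes on these lists outside the 10, 48 were tested, 3 were called higher and 2 lower, 29 had 0 counts in at least 1 library, and the median log2 fold change was 0.22.

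**Figure D5:**
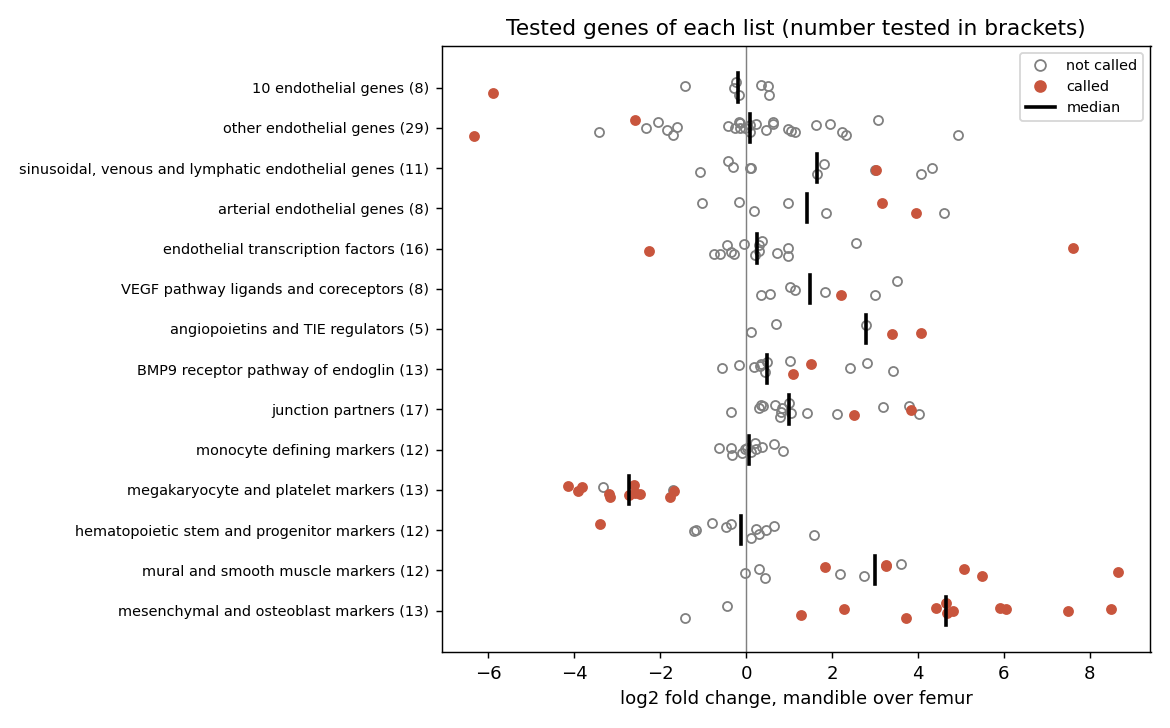
Log2 fold change of the mandible over the femur for the tested genes of 14 lists, with called genes filled and the median of each list as a bar. The endothelial lists spread on both sides of 0 (median -0.19 for the 10 genes), the megakaryocyte and platelet list lies below 0 (median -2.72), and the mesenchymal list lies mostly above it (median 4.66).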

How the data were processed

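RNA of marrow monocytes was sequenced in 6 libraries, 3 from each skeletal site. The authors trimmed the reads, aligned them with HISAT2 2.1.0 (GRCm38 is the build they name) and assigned them to genes with featureCounts. The deposited table holds raw counts per gene, with gene positions and a gene length in bases (other columns). The strand setting and the treatment of reads with several positions are not given in the sources used here. The intervals of the 10 genes in the table did not lie inside the GRCm38 genes, so positions were taken from GENCODE M21 by Ensembl identifier. The test was edgeR's quasi-likelihood test (edgeR 4.0.16, R 4.3.3; TMM, prior count 0.125, no covariates) after filterByExpr (at least 10 counts, total at least 15) on the whole table, and the 10 genes were read from it. The script was tested on simulated data, in which 200 genes changed 4-fold. Single genes were also tested by exact permutation of log2(CPM + 0.1). The 10 genes and all lists were chosen with earlier results of these data known, and lists were described and not tested. A gene of the platelet and stem cell lists is not reported here. Named genes were all 10 members, overlapping genes, Xist, and from each list the 3 most abundant by mean CPM at most and the 4 called genes that changed most. In the lists of vessel subtypes, the genes with estimates below 0 were named too. Alternatives were DESeq2 1.42.0, limma-voom (limma 3.58.1), RLE or no size factors, TMM without mitochondrial, hemoglobin, immunoglobulin and ribosomal RNA genes, other filters, no fold threshold, removal of the trend on gene length (loess, span 0.4), and each library left out.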

Additional observations from a re-analysis of the deposited data

How the results depend on the processing

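Esam was called in 13 of 14 alternatives, with log2 fold changes from -6.45 (without S19) to -5.42 (without S23). Under limma-voom its value was -6.27 with an adjusted p of 0.055, so that 0 of the 10 genes were called lower there, against 1 in the main analysis. No other gene of the 10 was called in any alternative. The count of all called genes, 938 in the main analysis, was 1548 with DESeq2, 1590 without the filter on low counts, where the median of all 42225 genes moved to -1.09, and 434 (without S19) to 1565 (without S15) with 1 library left out. Estimates near 0 changed sign: that of Cdh5 was 0.29 under limma-voom and -0.73 to 0.49 with 1 library left out, that of Kdr -0.51 to 0.093 with 1 library left out, that of Flt1 -0.13 with the length trend removed, and that of Tek -1.07 under limma-voom and -0.20 to 0.99 with 1 library left out. The cause was not tested. The median of the 8 tested endothelial genes was 0.20 without S13 and -0.45 with the length trend removed. No paired analysis was possible because the labels do not give the animal of a library. Counts of 0 to 64 in Cdh5, Tek, Emcn, Cldn5 and the mandible values of Esam limit what could be detected in them.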
